A study of Mus musculus with 6 samples.

Results

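The genes described here are the semaphorins, Slits, netrins and ephrins, the ligands of the 4 classical families of axon guidance cues, together with their plexin, neuropilin, Robo, Dcc, Unc5 and EphB receptors. They were chosen by gene symbol among the protein-coding genes of the GENCODE M21 annotation, which gave 62 genes of the 55450 in the count tables. All 62 had enough reads to be tested, and 37 of them are ligands or netrin-Gs and 25 receptors or co-receptors. Cerebral cortex of adult mice gave polyadenylated RNA for 3 libraries from Setd5 heterozygous tissue and 3 from wild type tissue. Setd5 encodes a chromatin protein with a SET domain. The labels give no strain, sex or age beyond adult, do not describe the Setd5 allele, and do not say that the libraries of a group come from separate animals. The p-values below therefore measure the spread between these libraries, part of which could be technical.

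Guidance cues steer growing axons by attraction and repulsion during development. Semaphorins act through plexins, with neuropilins as co-receptors of most secreted class 3 members, and Slits act through Robo receptors. Netrins attract through Dcc and repel through Unc5 receptors, while ephrins on one cell bind Eph receptors on another and can signal in both directions. Many of these genes stay on in the adult cortex, where they are known for roles in synapses, in spines and in vessels.

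Libraries held between 82850628 and 92860628 counts, and a count of 0 would allow a level of up to 0.0326 to 0.0364 CPM, a gene's counts per 1000000 counts of its library after scaling, for counting error only. The count limit is 3 reads per library, and no guidance gene came near it: the lowest, Efna4, had 130 counts over the 6 libraries. Setd5 itself was at 69.5, 68.7 and 75.3 CPM in the heterozygous libraries and at 111, 97.0 and 108 CPM in the wild type libraries, so its groups did not overlap. Its log2 difference was -0.56 (SE 0.07, adjusted p = 0.258 in edgeR), which DESeq2 called and edgeR's quasi-likelihood test did not. Xist, the transcript of the inactive X chromosome, was at 865 CPM in heterozygous replicate 3 and 784 CPM in wild type replicate 3 and under 1 CPM in the other 4, so each group holds 1 library of that kind. The Y-linked gene Ddx3y was at 1.65 and 1.77 CPM in those same libraries and from 96.5 to 106 CPM in the other 4, so replicate 3 of each group does not repeat the animal of its group mates. Among marker lists, 9 genes of striatal neurons summed to 315, 434 and 710 CPM in the heterozygous libraries and to 230, 412 and 1629 CPM in the wild type libraries. These markers of a neighbouring region were highest in wild type replicate 3 and lowest in wild type replicate 1.

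No guidance gene passed the test between genotypes. In edgeR's quasi-likelihood test, adjusted by Benjamini-Hochberg over the 27939 genes tested, 0 of the 62 reached an adjusted p under 0.05, as did 0% of all genes tested. DESeq2, limma-voom, limma-voom with quality weights and edgeR's likelihood ratio test also called 0 of the 62 guidance genes. Of all 27939 genes tested they called 62, 0, 2 and 29, in that order. The smallest adjusted p of a guidance gene was 0.797 in edgeR and 0.109 in DESeq2, both for Nrp2. At an unadjusted p under 0.05 there were 5 of 62, or 8.06%, against 5.83% of all genes tested. All 5 lay lower in heterozygous cortex, and 0 lay higher, where 3.38% of all genes were lower at that p and 2.44% higher. Among the 14013 protein-coding genes with a mean of at least 1 CPM, 979 were at that p, 620 lower and 359 higher. The 5 genes were Nrp2, Robo1, Plxnb1, Unc5c and Ntn3, which are 4 receptors or co-receptors and a netrin.

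The count of 5 depended on single libraries. It was 12 when wild type replicate 2 was left out (19.4%, against 8.89% of all genes in that fit) and 8 when wild type replicate 3 was (12.9% against 6.69%). It was 1 without heterozygous replicate 2 (1.61% against 3.07%) and 2 without heterozygous replicate 1 (3.23% against 3.91%). Groups did not overlap for 6 of 62 guidance genes, or 9.68%, against 11.7% of all genes tested. Of these 6, 4 were lower in heterozygous cortex (Nrp2, Robo1, Unc5c and Ntn3), where the share over all genes was 5.85%. The other 2, Efna2 and Efna4, were higher, where that share was 5.88%.

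Fitted levels lay below wild type for 41 of the 62 genes, or 66.1%, against 50.1% of all genes tested. Their median log2 difference, heterozygous minus wild type, was -0.07, beside -0.00053 over all genes tested. Taken per library, the median log2 CPM of these genes relative to the wild type mean had a pooled SD of 0.0622 between libraries of a group. That SD is close in size to the median difference, but it describes single libraries and is not the error of that difference. Without wild type replicate 3 the median difference was -0.03, with 35 of 62 genes below. The guidance genes' mean log2 level overlapped between the groups, running from -0.08 to -0.03 in heterozygous and from -0.06 to 0.06 in wild type libraries, relative to the wild type mean.

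The fit limits how far most of these genes can differ. For 53 of the 62, or 85.5%, the 95% interval of the difference lay within 1.5-fold in either direction, against 56.5% of all genes tested. Among genes with a mean of at least 1 CPM that share was 82.5%. The 9 genes with wider intervals were Nrp2, Sema3b, Sema5b and Sema3f, the netrin Ntn5 with the netrin-G gene Ntng2, and the ephrins Efna1, Efna4 and Efnb3, of which only Nrp2 had an interval that left out 0.

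**Figure D1:**
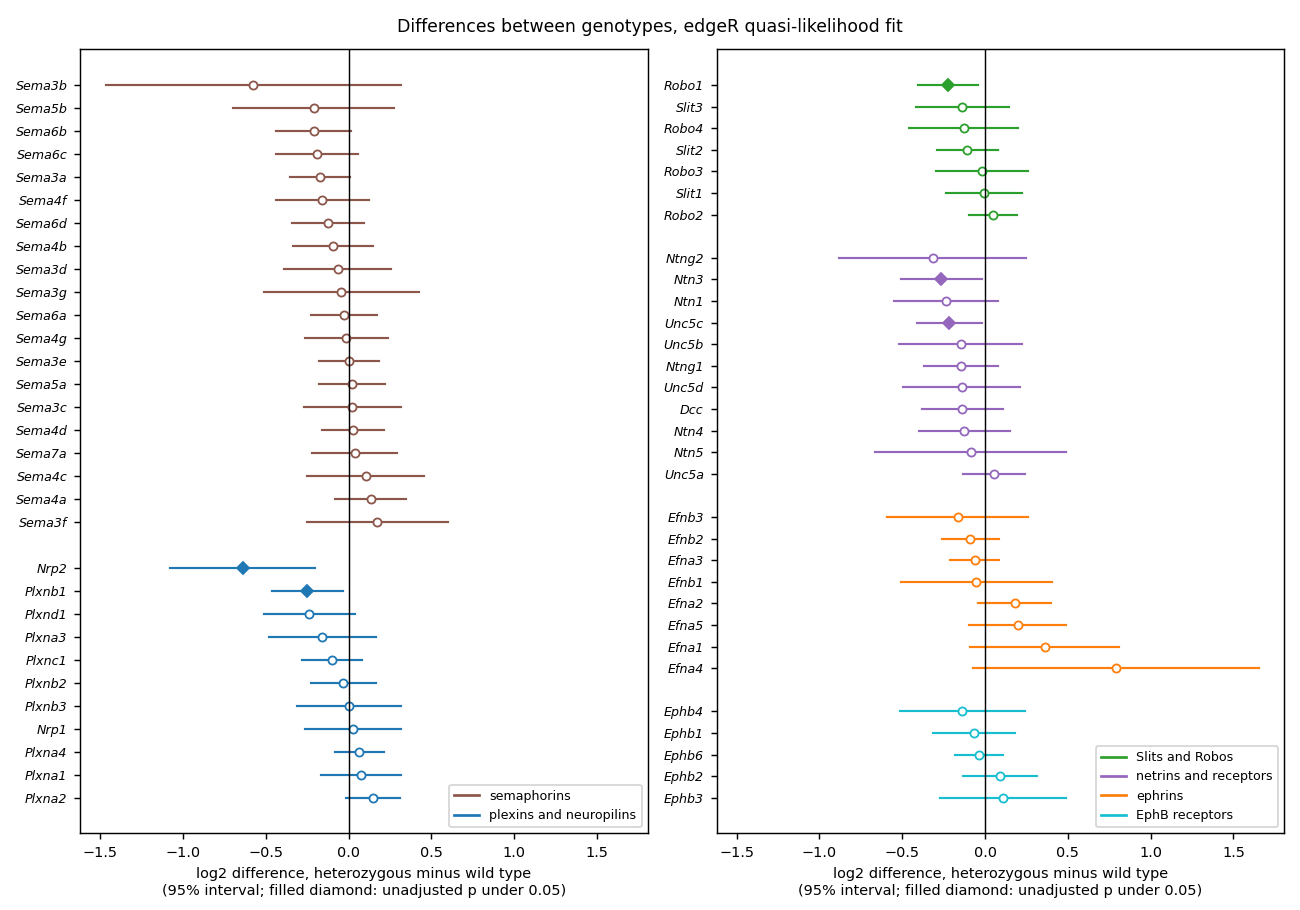
Log2 difference of each of the 62 guidance genes, heterozygous minus wild type (x axis), with its 95% interval from the edgeR fit over 3 libraries per group; colours mark families and filled diamonds the genes at an unadjusted p under 0.05. The 5 filled genes all lie left of 0, the farthest is Nrp2 at -0.64, and the intervals of all others cross 0.

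Nrp2 encodes neuropilin-2, a co-receptor that binds class 3 semaphorins such as Sema3f and also binds VEGF family factors. Heterozygous replicates 1 to 3 held 7.77, 9.55 and 9.09 CPM of it, and wild type replicates 1 to 3 held 13.0, 9.88 and 18.2 CPM. The groups did not overlap, but heterozygous replicate 2 and wild type replicate 2 nearly met, and wild type replicate 3 stood above all others. The heterozygous level was 64.2% of wild type (95% interval 47.4% to 87.0%). On the log2 scale the groups differed by -0.64, with 0.19 as its standard error (SE) (unadjusted p = 0.00891, adjusted p = 0.797), and it was -0.38 without wild type replicate 3. Its unadjusted p was under 0.05 in all 19 alternative fits, up to 0.0366, and its adjusted p ran from 0.109 to 1. The fit with a threshold of 0.1 repeats the main fit. Nrp2 was picked by its p in these same libraries, so the tally is no independent support. Its partner neuropilin-1, Nrp1, was at 18.9 ± 1.81 CPM in heterozygous libraries against 18.5 ± 3.13 CPM in wild type libraries (mean ± SD, n = 3 each), and differed by 0.03 on the log2 scale (SE 0.13).

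Robo1 encodes a receptor for Slit proteins that keeps axons from crossing where Slits are made. It was at 21.0, 22.5 and 24.4 CPM in the heterozygous libraries and at 25.8, 25.7 and 27.8 CPM in the wild type libraries. Every heterozygous library lay below every wild type library, by a narrow margin. The log2 difference was -0.22 (SE 0.08, unadjusted p = 0.0200, adjusted p = 0.828), and the heterozygous level was 85.6% of wild type (95% interval 75.5% to 97.0%). Its unadjusted p was under 0.05 in 17 of 19 alternative fits, a tally with the same limits as that of Nrp2.

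Plxnb1, the receptor of the membrane semaphorin Sema4d, was at 39.1, 37.6 and 44.1 CPM in heterozygous libraries against 51.1, 41.6 and 50.8 CPM in wild type libraries. Heterozygous replicate 3 lay above wild type replicate 2, so the groups overlapped. Its log2 difference was -0.25 (SE 0.10, unadjusted p = 0.029). Sema4d, its ligand, was at 49.9 ± 5.34 CPM in heterozygous libraries against 49.0 ± 0.971 CPM in wild type libraries (mean ± SD, n = 3 each).

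Unc5c encodes a receptor that mediates repulsion by netrin. It was at 37.3, 32.7 and 41.3 CPM in heterozygous libraries against 41.7, 43.2 and 44.4 CPM in wild type libraries, so heterozygous replicate 3 and wild type replicate 1 nearly touched. The log2 difference was -0.21 (SE 0.09, unadjusted p = 0.0349), and it was -0.13 without heterozygous replicate 2.

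Ntn3, a secreted netrin, was at 5.13, 5.19 and 5.30 CPM in heterozygous libraries against 6.09, 5.78 and 6.87 CPM in wild type libraries. The heterozygous libraries lay within a narrow band below all wild type libraries. The log2 difference was -0.26 (SE 0.11, unadjusted p = 0.0379). None of these genes passed after adjustment, with adjusted p of 0.844 for Plxnb1, Unc5c and Ntn3 alike. Of the 19 alternative fits, Plxnb1 was at an unadjusted p under 0.05 in 15, Unc5c in 14 and Ntn3 in 12.

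**Figure D2:**
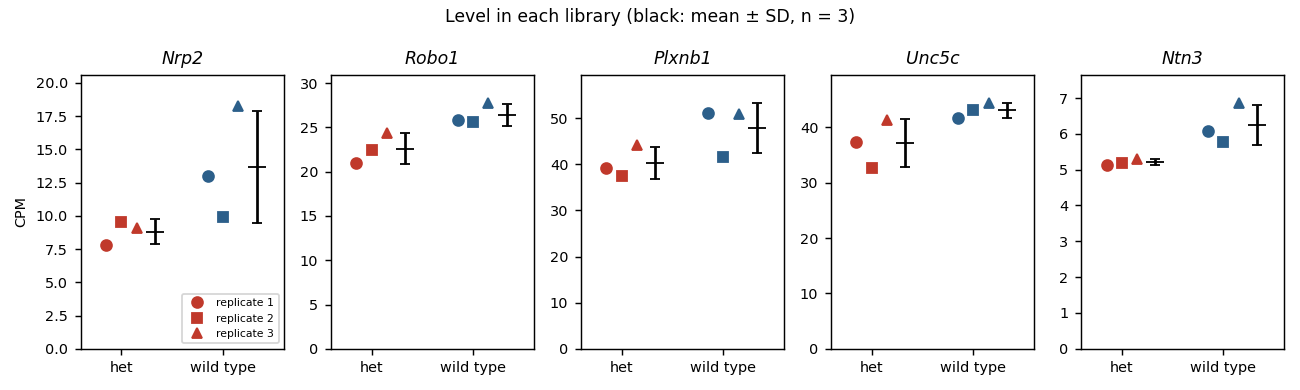
CPM in each library (y axis, from 0) for the 5 guidance genes at an unadjusted p under 0.05, with heterozygous libraries in red and wild type in blue, symbols for replicates, and black bars for the mean ± SD of 3 libraries. Groups are apart for Nrp2, Robo1, Unc5c and Ntn3 and overlap for Plxnb1, and the wild type SD of Nrp2 (4.22 CPM) is the widest against its mean.

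Upstream sequences of these genes are shown because they are the guidance genes that ranked first, and they differ in base composition. RefSeq promoter windows on GRCm38.p6, from 250 bases before to 50 after a start, were found for 52 of the 62 genes, 67 windows in all. Printed below, 5′ to 3′ on the gene's strand, is the part of each window before the first annotated exon inside it, with capitals marking the GC box GGGCGG on either strand. Nrp2 (chr1:62703067-62703284, plus strand), Robo1 (chr16:72662899-72663148, plus strand) and Ntn3 (chr17:24209532-24209637, minus strand) have such a part. The Robo1 window belongs to an internal start, 355 kb inside the annotated gene, where a shorter protein-coding transcript begins, so longer transcripts start ahead of it.
Nrp2: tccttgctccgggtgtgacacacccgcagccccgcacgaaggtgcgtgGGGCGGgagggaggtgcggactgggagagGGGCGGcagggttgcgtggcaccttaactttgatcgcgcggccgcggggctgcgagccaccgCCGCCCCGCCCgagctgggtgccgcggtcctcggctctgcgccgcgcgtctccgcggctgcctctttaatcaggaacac
Robo1: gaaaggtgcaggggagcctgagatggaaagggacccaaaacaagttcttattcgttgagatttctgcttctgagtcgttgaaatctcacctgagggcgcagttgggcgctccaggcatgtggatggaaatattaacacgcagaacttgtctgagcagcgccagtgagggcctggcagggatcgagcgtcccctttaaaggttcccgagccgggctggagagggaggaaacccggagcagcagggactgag
Ntn3: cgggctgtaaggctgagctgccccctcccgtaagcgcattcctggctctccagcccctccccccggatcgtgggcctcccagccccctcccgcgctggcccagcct

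The whole Nrp2 window held 5 GC boxes, overlapping matches counted, at 70.7% GC and 37 CpG dinucleotides. The Robo1 window held 0 GC boxes at 57.0% GC and 15 CpG, and the Ntn3 window 2 at 71.3% GC and 16 CpG. Plxnb1 (5 GC boxes, 74.7% GC) and Unc5c (0, 68.3% GC) have windows that begin within annotated exons and are not printed. Among the 67 windows of guidance genes 45, or 67.2%, held GGGCGG on either strand, against 46.2% of 21263 windows of protein-coding genes and 35.7% of all 32851 windows. The TATA box TATAAA, on either strand, was in 2 windows of guidance genes, or 2.99%, against 12.6% for protein-coding genes and 13.6% for all. Median GC was 64.0% in windows of guidance genes and 56.3% in those of protein-coding genes. These matches describe letters in the windows only.

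Levels between genes are compared as RPKM, the CPM per kilobase of exon, averaged over the 6 libraries. They ran from 37.2 for Sema7a to 0.153 for Efna4. At 10 RPKM or more stood 6 genes, which were Sema7a, Ephb6 (19.7), Sema6b (16.1), Efna3 (13.6), Efnb3 (12.3) and Robo2 (10.5). Another 24 lay from 3 to under 10, 25 from 1 to under 3, and 7 under 1 RPKM. The 7 lowest were Nrp2 (0.95), Ntn1 (0.752), Sema3b (0.561), Robo4 (0.457), Ephb4 (0.406), Sema3g (0.355) and Efna4. Robo4 is known from endothelial cells and Ephb4 from veins.

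**Figure D3:**
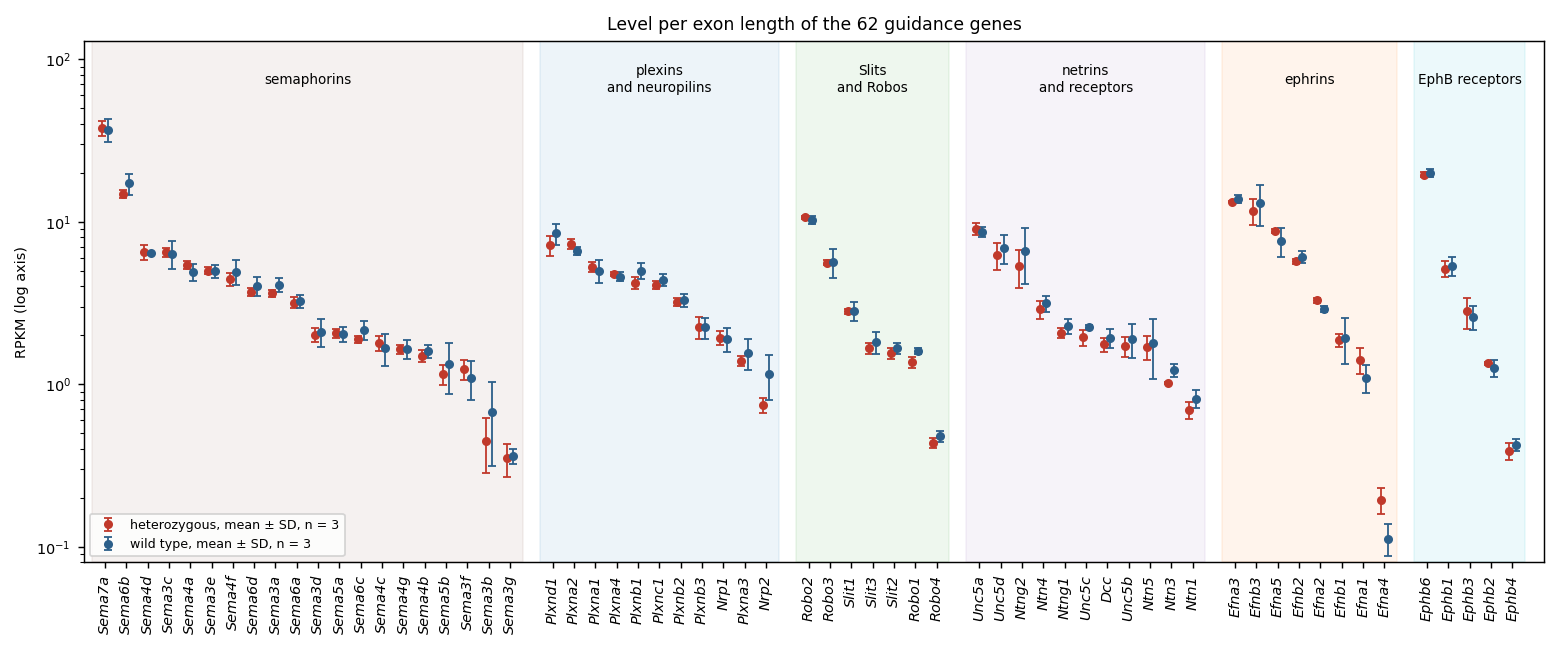
Level of each guidance gene in RPKM (y axis, log scale), ordered within its family by the mean of all libraries; points are group means and bars the SD of 3 libraries, heterozygous in red and wild type in blue. Sema7a is highest at 37.2 RPKM and Efna4 lowest at 0.153 RPKM, and bars of both groups overlap for most genes.

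Among the 20 semaphorins, 12 were fitted below and 8 above wild type. Their median was -0.04 on the log2 scale, and 0 were at an unadjusted p under 0.05. Differences ran from -0.58 for Sema3b to 0.17 for Sema3f, and both ends depended on single libraries. Leaving out heterozygous replicate 3 gave -0.93 for Sema3b, and leaving out wild type replicate 2 gave -0.14. Sema3f was at 0.00496 when wild type replicate 1 was omitted, and at 0.39 when wild type replicate 3 was. Sema7a, a membrane semaphorin held by a lipid anchor that also binds integrins, was at 139, 119 and 115 CPM in heterozygous libraries against 109, 111 and 143 CPM in wild type libraries. Its groups overlapped fully, and its log2 difference of 0.04 (SE 0.12) changed sign when heterozygous replicate 1, wild type replicate 1 or wild type replicate 2 was left out. The smallest p among semaphorins belonged to Sema3a, a secreted repellent that also sits in perineuronal nets, at 50.2 ± 2.36 against 56.6 ± 5.53 CPM (SD, n = 3 each). Sema6b, a ligand of A-type plexins, was at 61.5, 55.4 and 60.4 CPM in heterozygous libraries against 63.9, 61.3 and 80.0 CPM in wild type libraries. Its log2 difference went from -0.21 to -0.08 without wild type replicate 3, which was its highest library. Sema6c differed by -0.19 (SE 0.11), and by -0.08 without wild type replicate 1.

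The secreted class 3 semaphorins covered a wide range of levels. Sema3c (6.42 RPKM), Sema3e (4.98 RPKM) and Sema3a (3.85 RPKM) were well expressed, and Sema3b and Sema3g were near the bottom. Sema3d, Sema3a, Sema3e and Sema3c lie in this order on chromosome 5, within 5350 kb, and their log2 differences ran from -0.17 to 0.02. Sema3b was uneven between libraries, at 1.74, 1.64 and 3.08 CPM in heterozygous libraries against 3.29, 4.89 and 1.45 CPM in wild type libraries. Its wild type libraries alone spanned the whole range of the other group. In the same wild type libraries 12 markers of meningeal fibroblasts summed to 210, 267 and 123 CPM, in the order of Sema3b. In the heterozygous libraries they summed to 142, 124 and 133 CPM, and there Sema3b did not follow that order. Their part in the Sema3b values was not tested.

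Of the 9 plexins 5 were fitted below and 4 above wild type, from -0.25 for Plxnb1 to 0.15 for Plxna2, and all 9 intervals lay within 1.5-fold. Plxnd1, a plexin known from vessels and from cortical neurons, had the highest level of them per length, 7.82 RPKM. It was at 60.4, 46.5 and 50.4 CPM in heterozygous libraries against 58.5, 54.6 and 72.4 CPM in wild type libraries, which overlapped, with a log2 difference of -0.24 (SE 0.12). This gene lies 2.80 Mb from Setd5 on chromosome 6. Plxna2, a receptor of class 6 semaphorins, was the plexin fitted highest above wild type, at 123, 118 and 135 against 108, 121 and 110 CPM. Heterozygous replicate 2 lay under wild type replicate 2, and the log2 difference was 0.15 (SE 0.07, unadjusted p = 0.0702). The X-linked plexins Plxna3 and Plxnb3 were at 11.0 ± 0.775 against 12.3 ± 2.63 CPM and at 14.5 ± 2.26 against 14.5 ± 2.13 CPM (SD, n = 3 each).

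Apart from Robo1, no Slit or Robo gene reached an unadjusted p under 0.05. Robo2, the most abundant of them at 10.5 RPKM, was at 185, 180 and 178 CPM in heterozygous libraries against 171, 186 and 167 CPM in wild type libraries. Its groups overlapped, and the interval of its difference ran from 93.7% to 114% of wild type. Robo1 and Robo2 lie within 2100 kb on chromosome 16, on opposite strands. The ligands Slit1, Slit2 and Slit3 were fitted at or below wild type by at most 0.14. Slit2 was at 39.5 ± 2.99 against 42.5 ± 3.31 CPM and Slit3 at 10.1 ± 0.824 against 11.1 ± 1.72 CPM (SD, n = 3 each). Over the 7 genes of this family 6 were fitted below wild type, with a median of -0.11. Their mean log2 level ran from -0.09 to -0.07 in heterozygous and from -0.05 to 0.03 in wild type libraries, a narrow gap without overlap. Their summed CPM did overlap, at 306 to 316 CPM in heterozygous and 306 to 317 CPM in wild type libraries. The median was -0.04 without wild type replicate 3 and -0.05 without heterozygous replicate 2.

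In the family of netrins, netrin-Gs, Dcc and Unc5 receptors 10 of 11 genes were fitted below wild type, and the median of the 11 log2 differences was -0.14. All 4 netrins and both netrin-Gs were among the 10. This pattern rested on wild type replicate 3. The family's mean log2 level was 0.24 in that library, against -0.10 and -0.14 in wild type replicates 1 and 2 and -0.08, -0.21 and -0.15 in heterozygous replicates 1 to 3. Without wild type replicate 3 the median was -0.03 and 6 of 11 genes were below. That library was also the one with the highest sum of striatal markers, 1629 CPM. With the striatal marker level as a covariate, the family's median was -0.13 and 9 of 11 genes were below. That fit was added after the data were seen, and the part of striatal tissue in the pattern was not tested.

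Ntn5, Ntng2, Unc5b and Unc5d changed sign without that library and were chosen after their values were seen. Ntn5, a secreted netrin, was at 4.47, 3.32 and 3.45 CPM in heterozygous libraries against 3.49, 2.68 and 5.77 CPM in wild type libraries. Its log2 difference was -0.09 (SE 0.26), and 0.28 without wild type replicate 3, its highest library. Ntng2, a membrane-bound netrin-G of excitatory synapses, was at 27.3, 16.1 and 20.3 CPM in heterozygous libraries against 22.9, 18.9 and 37.6 CPM in wild type libraries. Its log2 difference was -0.32 (SE 0.25), and 0.03 without wild type replicate 3. Unc5d, a netrin receptor of upper cortical layers, was at 69.7, 54.9 and 48.5 CPM in heterozygous libraries against 54.5, 58.0 and 78.4 CPM in wild type libraries. Its difference was -0.14, and 0.04 without that library, and that of Unc5b went from -0.15 to 0.06. The highest gene of the family per length was Unc5a (8.87 RPKM), another netrin receptor, at 41.1, 35.8 and 36.0 against 36.0, 33.7 and 39.0 CPM, with overlapping groups and a log2 difference of 0.05 (SE 0.08). Ntn1, the netrin best known for commissural axons, was low at 4.34 ± 0.508 against 5.11 ± 0.648 CPM (SD, n = 3 each), and its receptor Dcc was at 23.2 ± 2.24 against 25.5 ± 3.32 CPM.

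**Figure D4:**
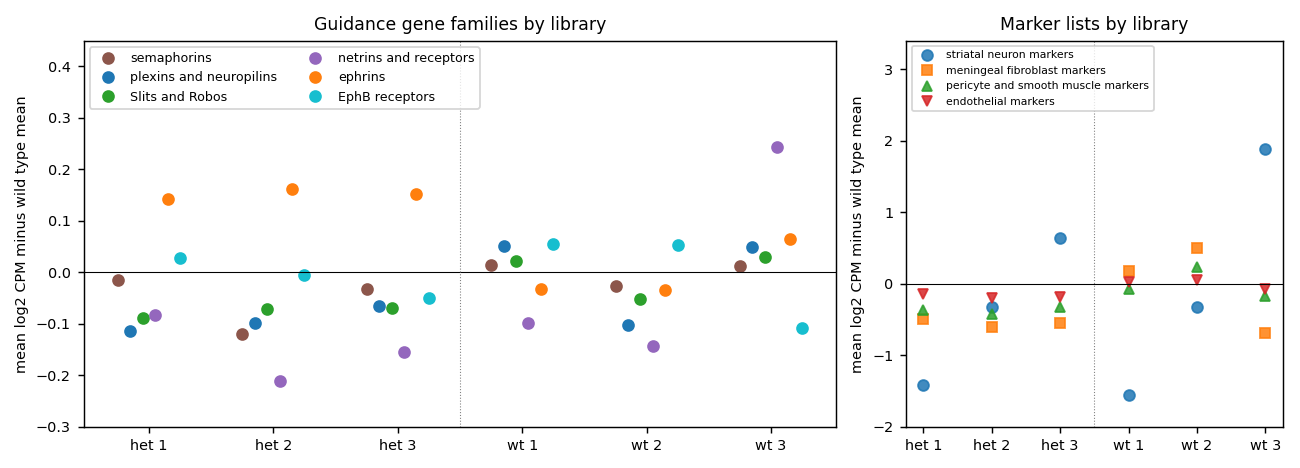
Mean log2 CPM of each guidance family (left) and of 4 marker lists (right) in each library, with the wild type mean at 0; het and wt are heterozygous and wild type replicates. Netrins and their receptors are highest in wild type replicate 3 (0.24), where the striatal markers are also highest (1.88). Ephrins are above every wild type library in all heterozygous libraries (0.14 to 0.16). This mean weights the scarce Efna4 like the others, and the summed CPM of the ephrins overlaps between groups.

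Ephrins were the one family with a median above wild type, 0.06. Of the 5 ephrin-As, which are tethered by a lipid anchor and bind mainly EphA receptors, 4 were fitted above wild type. All 3 ephrin-Bs, which span the membrane and bind mainly EphB receptors, were fitted below. This division between the classes was not tested, and it did not hold without wild type replicate 3, when Efnb1 went from -0.05 to 0.21, Efnb3 turned to 0.08 and 6 of 8 ephrins were above wild type. The mean log2 level of the 8 ephrins was 0.14, 0.16 and 0.15 in the heterozygous libraries and -0.03, -0.03 and 0.07 in the wild type libraries, so the groups did not overlap. This mean weights the scarce Efna4 like the others. When genes had to reach 1 CPM in 3 libraries, which drops Efna4, the median difference was -0.05. Summed CPM of the 8 ephrins overlapped, at 154.5 to 164.3 CPM in heterozygous and 156.9 to 172.8 CPM in wild type libraries.

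Efna4 was at 0.370, 0.255 and 0.308 CPM in heterozygous libraries against 0.189, 0.213 and 0.136 CPM in wild type libraries. Its groups did not overlap, and its log2 difference of 0.79 (SE 0.38, unadjusted p = 0.0691) had an interval from 94.9% to 314% of wild type. Efna2 was at 7.15, 7.19 and 6.71 CPM in heterozygous libraries against 6.47, 5.87 and 6.25 CPM in wild type libraries, again without overlap, with a log2 difference of 0.18 (SE 0.10). Efna1 was at 2.12, 3.06 and 2.54 against 1.64, 1.94 and 2.42 CPM, with overlap, and differed by 0.36 (SE 0.20). Efna3, the most abundant ephrin at 13.6 RPKM, was nearly level, at 32.6, 32.0 and 32.3 against 32.5, 35.9 and 32.9 CPM. Efna1, Efna3 and Efna4 lie within 66.3 kb on chromosome 3, yet their log2 differences ran from -0.06 to 0.79. Genes on the opposite strand overlap 14.1% of the exon bases of Efna3 and 10.5% of those of Efna4, and the library kit does not mark strand, so some of their reads cannot be assigned with certainty.

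Efna5 and Efnb3 were decided by wild type replicate 3 and were chosen after their values were seen. Efna5, which repels axons that carry EphA receptors, was at 36.4, 34.8 and 34.5 CPM in heterozygous libraries against 35.1, 33.6 and 23.6 CPM in wild type libraries. Its log2 difference was 0.20, and 0.04 without that library. Efnb3 was at 30.4, 37.2 and 43.6 CPM in heterozygous libraries against 31.3, 39.0 and 54.3 CPM in wild type libraries. Its difference was -0.16, and 0.08 without that library.

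EphB receptors, which take up ephrin-B signals at synapses, had 3 of 5 genes fitted below wild type and a median of -0.04. None reached an unadjusted p under 0.05, and all 5 intervals lay within 1.5-fold. Ephb6, which lacks kinase activity, was the most abundant at 19.7 RPKM, with 71.3, 72.4 and 76.8 CPM in heterozygous libraries against 76.7, 78.9 and 70.8 CPM in wild type libraries. Its groups overlapped, and its interval ran from 88.0% to 108% of wild type. Ephb2 was at 16.9 ± 0.387 against 15.9 ± 1.95 CPM, Ephb3 at 18.6 ± 4.05 against 17.3 ± 2.97 CPM, and Ephb4 at 1.79 ± 0.213 against 1.97 ± 0.161 CPM (SD, n = 3 each). The log2 difference of Ephb3 ran from -0.02 without heterozygous replicate 1 to 0.27 without heterozygous replicate 3.

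**Figure D5:**
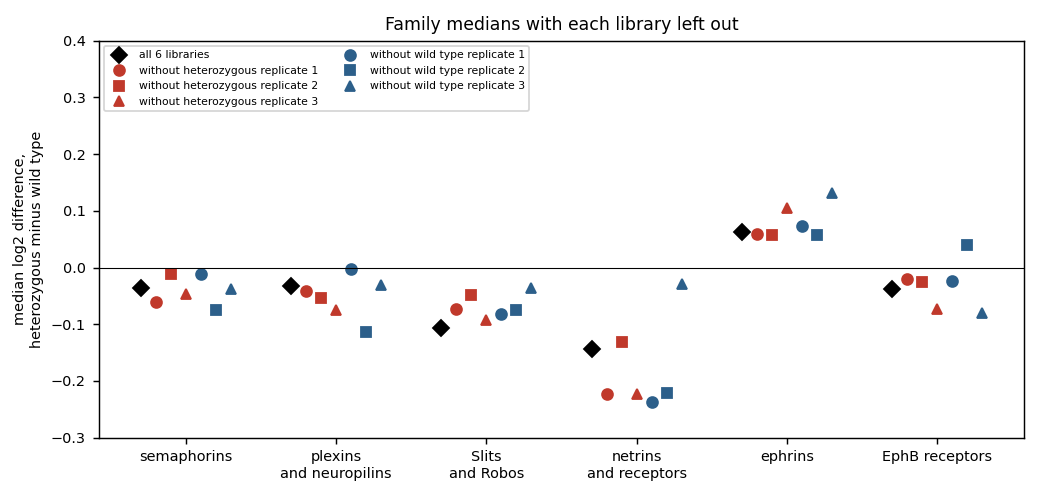
Median log2 difference, heterozygous minus wild type (y axis), of each family with all 6 libraries (black diamond) and with each library left out in turn (red for heterozygous, blue for wild type). The netrin family moves from -0.14 to -0.03 without wild type replicate 3, and the EphB median turns from -0.04 to 0.04 without wild type replicate 2.

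Wild type replicate 3 was the library in which guidance genes stood apart most often. It was the highest or the lowest of the 6 libraries for 38 of the 62 genes, or 61.3%, and for 49.3% of all genes tested. Wild type replicate 2 was so for 27, or 43.5%, against 36.2% of all genes. The other 4 libraries were so for 11 to 17 each, or 17.7% to 27.4%, against 27.4% to 30.4% of all genes. Relative to the mean of its group mates, wild type replicate 3 deviated by over 0.5 in log2 CPM in 13 guidance genes, against 1 to 5 in each other library. That count was not made over all genes. The median absolute deviation of wild type replicate 3 was 0.241 over guidance genes and 0.21 over all genes tested. Over all genes tested, that median was 0.113 to 0.188 in the other libraries, so wild type replicate 3 stood apart there too. Without both libraries with high Xist counts, which include this one, 12 guidance genes were at an unadjusted p under 0.05 (7 lower and 5 higher, smallest adjusted p 0.182). This is 19.4% of them, against 7.89% of all genes in that fit.

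The guidance genes share some features that their symbols did not select. They are long, with a median span of 51.5 kb against 24.2 kb for the 16251 protein-coding genes tested, and 28 of 62 (45.2%) span over 100 kb against 14.8%. Exons of other genes overlap those of 16 members. The overlap exceeds 10% of exon bases in 5 of them, which are Ntn5 (23.4%), Efna3, Ntng2 (14.0%), Plxna1 (10.7%) and Efna4.

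Other genes of the pathway were read from lists. Of all genes tested, 50.1% were fitted below wild type, and 2.44% were higher and 3.38% lower at an unadjusted p under 0.05. Of 9 EphA receptors, the main partners of ephrin-As, 6 were fitted below wild type, and 2 were lower and 1 higher at an unadjusted p under 0.05, with 0 past the adjusted threshold. Epha3 was at 9.13, 7.94 and 9.10 CPM in heterozygous libraries against 10.9, 13.8 and 14.7 CPM in wild type libraries, without overlap (log2 difference -0.59, SE 0.12, adjusted p = 0.719). Epha10 was at 38.7 ± 4.20 against 30.0 ± 4.46 CPM and Epha7 at 67.7 ± 3.70 against 85.2 ± 19.7 CPM (SD, n = 3 each). Among 31 co-receptors and other guidance cues 16 were fitted below wild type, and 2 were higher and 2 lower at an unadjusted p under 0.05. Among those with the smallest p were the adhesion receptor Dscam at 0.22 (SE 0.07) and Islr2 at 0.29 (SE 0.10). Among 59 intracellular effectors 30 were fitted below wild type, with 2 higher and 3 lower at that p. The smallest p among these effectors belonged to Dock1, an activator of Rac, at -0.30 (SE 0.09). Next were the GTPase Rnd1 at 0.33 (SE 0.11) and Vav3, another Rac activator, at -0.39 (SE 0.15). Medians were -0.17 for EphA receptors, -0.0056 for other cues and -0.0012 for effectors, and 0 genes of these lists passed edgeR's adjusted test.

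Markers of vessels and of some other cells also lay apart between the groups. Of all genes tested, 5.83% were at an unadjusted p under 0.05 and 50.1% were fitted below wild type. All 10 pericyte and smooth muscle markers were fitted below wild type, 5 at an unadjusted p under 0.05 and 0 past the adjusted threshold, with mean log2 levels from -0.42 to -0.33 in heterozygous and -0.16 to 0.24 in wild type libraries. The 14 endothelial markers ran from -0.21 to -0.14 against -0.07 to 0.05, also without overlap, and summed to 232 to 246 CPM against 238 to 267 CPM. Taken singly, 11 of them were fitted below wild type and 3 above, with 5 at that p. Groups did not overlap for 5 of them, against 11.7% of all genes tested. Mean levels of the 10 microglia and 10 astrocyte markers did not overlap either, with medians of -0.16 and -0.07. The astrocyte means nearly met, at -0.04182 in heterozygous replicate 3 and -0.03095 in wild type replicate 1. Summed CPM of both lists did overlap. For microglia, heterozygous replicate 3 (440.4 CPM) lay above wild type replicate 3 (435.8 CPM). For astrocytes, heterozygous replicate 3 (5273 CPM) lay above wild type replicate 2 (5183 CPM). In each of these lists 2 genes were at that p. All 12 meningeal fibroblast markers were fitted below wild type, with a median of -0.61 and 8 at an unadjusted p under 0.05, and all 9 oligodendrocyte markers above, with a median of 0.28 and 2 at that p. Levels of both lists overlapped between groups. All 14 immediate early genes, which neuronal activity induces, were fitted above wild type with a median of 0.69. Of these, 8 were at that p, though levels of the list overlapped between groups. No gene of these lists was at 0 in all 6 libraries. In whole tissue, fewer cells of a type and less RNA per cell cannot be told apart. Robo4, the Robo receptor of endothelial cells, was at 2.32 ± 0.170 against 2.53 ± 0.186 CPM and Ephb4 at the values above. Groups overlapped for both genes (unadjusted p = 0.402 for Robo4 and 0.436 for Ephb4 in edgeR's quasi-likelihood test). The part of vessel markers in the values of Nrp2 and Plxnd1 was not tested.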

How the data were processed

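Polyadenylated RNA of adult mouse cortex was measured in 3 Setd5 heterozygous and 3 wild type libraries. The authors deposited raw counts of reads per gene, 1 table per library. Per the submitters' processing notes the tools included featureCounts, Bowtie2 2.3.4.3, DESeq2 and FastQC, on builds mm10 and GRCm38.p6. Not given in the sources used here were their order, strand setting and handling of reads with several matches. If Bowtie2 searched the genome, reads over exon junctions would be undercounted, which affects comparisons of one gene with another more than of one library with another. Per the labels' protocols the TruSeq RNA Library Prep Kit v2 was used.

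All 55450 identifiers matched GENCODE M21 (GRCm38), which gave symbols, positions and exon union lengths. Genes were kept by filterByExpr (minimum count 10, minimum total 15), scaled with TMM and tested without covariates in edgeR 4.0.16 (glmQLFit, then glmQLFTest; R 4.3.3). P-values were adjusted by Benjamini-Hochberg over the 27939 genes kept, and 0.05 was the threshold. Biological variation between libraries (common coefficient) was 16.1%. Intervals (95%) and standard errors come from this fit. CPM uses effective library sizes, and list levels are mean log2 CPM with a prior count of 1. Depth was 82850628 to 92860628 counts per library. Every pair of libraries differed beyond sampling noise (chi-square per gene 9.17 to 68.5). The test was run on simulated counts with known changes, larger than the differences of most guidance genes and without an outlying library. It does not show how well differences as small as theirs would be found.

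The members and lists were chosen with earlier results of these data known. Of 224 list entries 222 matched a gene symbol. Values in every library are given for members at an unadjusted p under 0.05 and for the highest member per length in each family. Up to 3 members per family, and 3 per pathway list, were named by smallest p, except 1 list gene that is not reported here. Members with a mean under 1 count, or failing the filter, were to be named by total only, and there were 0. Other genes were named after their values were seen. Alternatives were other scalings, filters, DESeq2 1.42.0, limma-voom (limma 3.58.1), edgeR's likelihood ratio test, a threshold of 0.1 and each library left out. Leaving out both libraries with high Xist counts, and using Xist or the striatal level as a covariate, was added after the data were seen.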

Additional observations from a re-analysis of the deposited data

How the results depend on the processing

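The number of guidance genes called was 0 in every fit run. The number at an unadjusted p under 0.05 was 5 (8.06%, against 5.83% of all genes). It was 8 when all genes with 1 count or more were tested (12.9% against 5.1%). It was 9 in limma-voom with quality weights (14.5% against 7.91%) and 3 in the likelihood ratio test (4.84% against 5.01%). Without both libraries with high Xist counts it was 12 (19.4% against 7.89%). With single libraries left out it was 1 to 12, where the share over all genes ran from 3.07% to 8.89%. The number whose groups did not overlap was 6, and was 9 to 19 with single libraries left out and 23 without both high-Xist libraries, where fewer libraries make separation easier, as over all genes the share was 11.7%, then 17.5% to 26.3%, and 39% without both, beside 37.1% of guidance genes. The guidance genes' median ran from -0.10 to -0.03 over single libraries left out. Over all genes 0 were called, with 6 when all genes with 1 count or more were tested, 62 in DESeq2, 2 in limma-voom with quality weights, 29 in the likelihood ratio test, 1 at an adjusted p under 0.1, and 0 to 2 with single libraries left out. Setd5, at -0.56 (adjusted p 0.258), passed with all such genes tested (-0.57), in DESeq2 (-0.57), limma-voom with quality weights (-0.59) and the likelihood ratio test (-0.56). The log2 differences of 26 of 62 guidance genes took both signs with single libraries left out, which were Efnb1 (-0.259 to 0.206), Efnb3 (-0.331 to 0.0779), Ephb1 (-0.139 to 0.0392), Ephb3 (-0.0244 to 0.271), Nrp1 (-0.108 to 0.102), Ntn5 (-0.309 to 0.282), Ntng2 (-0.541 to 0.0266), Plxna3 (-0.282 to 0.0258), Plxnb2 (-0.113 to 0.017), Plxnb3 (-0.113 to 0.114), Robo3 (-0.152 to 0.144), Sema3c (-0.131 to 0.119), Sema3d (-0.221 to 0.0193), Sema3e (-0.0639 to 0.0637), Sema3g (-0.22 to 0.112), Sema4c (-0.0507 to 0.269), Sema4d (-0.038 to 0.108), Sema4g (-0.12 to 0.0805), Sema5a (-0.0419 to 0.105), Sema5b (-0.358 to 0.115), Sema6a (-0.0968 to 0.0178), Sema7a (-0.0565 to 0.177), Slit1 (-0.0696 to 0.111), Unc5a (-0.0172 to 0.111), Unc5b (-0.265 to 0.0613) and Unc5d (-0.305 to 0.0369). Signs turned under upper quartile scaling for Sema3e (-0.00757) and Plxnb3 (-0.00787). Signs also turned under scaling by library totals for Sema3e (-0.0101) and Plxnb3 (-0.0114). The same pair turned when all genes with 1 count or more were tested (-0.00587 for Sema3e and -0.00782 for Plxnb3). Signs differed in limma-voom for Plxnb3 (-0.00118), Robo3 (0.00207) and Slit1 (0.0016). Opposite signs came from limma-voom with quality weights for Sema3c (-0.0215), Sema3e (-0.0300), Nrp1 (-0.000949), Slit1 (0.0605), Ntn5 (0.0606) and Efnb1 (0.0542). Signs turned with both high-Xist libraries left out for Sema3c (-0.0801), Sema3e (-0.105), Sema3g (0.047), Sema4d (-0.0336), Sema4f (0.0441), Sema5a (-0.0965), Sema5b (0.00598), Sema6d (0.00225), Nrp1 (-0.0617), Plxnb3 (-0.0485), Plxnc1 (0.0091), Slit1 (0.14), Slit3 (0.0362), Ntn5 (0.338), Ntng2 (0.058), Unc5d (0.147) and Efnb1 (0.269). Signs also turned with high Xist as covariate for Plxnb3 (-0.00207) and Slit1 (0.00226). Other signs came with the striatal level as covariate for Sema3c (-0.0105), Sema3e (-0.00389), Slit1 (0.026), Ntn5 (0.0139) and Efnb1 (0.00264). The causes were not tested. No paired analysis was possible because the labels give no replicate numbers that the groups share.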
